A study of Mus musculus with 5 samples.

Results

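Infarcted and sham-operated neonatal mouse hearts were compared at 3 days after surgery, with 1 Visium section in each group. These were 2 of the 5 sections of the series, and the other 3 were taken at day 7 (1 sham and 2 MI). All mice were wild-type C57BL/6 and were operated on at postnatal day 1, so the day 3 hearts came from animals a few days old. Myocardial infarction (MI) was produced by tying off the left anterior descending coronary artery, and the control was a sham operation. Transverse sections 10 µm thick were taken 200 µm below the suture, which leaves the rest of each ventricle unsampled. With 1 section per group the difference between MI and sham has no replicate check and no p-value, and it cannot be told apart from a difference between 2 animals or 2 section planes.

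Visium measures polyadenylated RNA on a printed grid of barcoded spots, each of which covers a small region holding several cells. In the first days after a coronary artery is closed, monocytes and neutrophils enter the heart, macrophages clear dead cells, and fibroblasts and epicardial cells lay down a provisional matrix. Cardiomyocytes next to the infarct return to a fetal-type program that includes natriuretic peptides, skeletal and smooth muscle actins and keratins. The newborn mouse heart is known to regenerate after such an injury.

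The sham section had 544 spots with 11396022 raw UMIs in all and a median of 20842.5 UMIs per spot. The MI section had 376 spots, whose corrected counts summed to 12481253 with a median of 34837.5 per spot, so its raw depth is not known here. After spots under 1000 raw or corrected counts were removed, 543 sham and 365 MI spots remained, and 297 spot barcodes (positions of the printed grid) occurred in both. The sham table held raw UMI counts and the MI table sctransform-corrected counts. Every spot was therefore scaled to the same total (CPM) over the 14447 genes found in both tables, and spots were averaged per section. Such scaling does not even out the share of spots in which a gene was read. Rgcc, for example, was read in 41.8% of sham and 52.1% of MI spots although its mean CPM was lower in MI. Mitochondrial transcripts made up 15.8% of the sham and 13.8% of the MI values, and haemoglobin transcripts 0.444% and 1.13%. The sham section carried Xist at 39.0 CPM and no Y-linked reads, whereas the MI section carried the Y-linked genes Ddx3y and Eif2s3y at 35.6 and 70.9 CPM. The 2 hearts therefore differed in sex as well as in surgery, and the effects of the 2 cannot be told apart at day 3. Defining markers fitted the tissue label, since 5 cardiomyocyte markers summed to 23096 CPM in sham and 21228 CPM in MI.

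Far more genes were higher in MI than lower. Of the 9044 genes that reached 10 CPM in 1 or both sections, 260 were at least 2-fold higher in MI (2.87%) and 36 at least 2-fold lower (0.398%), on the log2(CPM + 1) scale that all ratios here use. Counts of list members past 2-fold stand against these shares. The median log2 ratio of all 9044 genes was 0.02, and 4878 ratios were positive and 4166 negative. With the sham counts corrected like those of MI, 257 genes were higher (2.84%) and 34 lower (0.376%). Among genes of at least 50 CPM, those with the highest ratios included the long transcript AI506816 and genes of phagocytes (Spp1, Gpnmb, Lgals3, Lyz2, Ctss), muscle (Nppa, Xirp2, Cnn1), the chaperone gene Clu and the matrix gene Mfap4, and those with the lowest were Ccn3 and Mfap5. Below 50 CPM, Sft2d1, 2700038G22Rik, Mt3, Cwc22, Kcna5 and Lyrm7, named after their values were seen, had ratios between -2.33 and -1.75. None of 21 endothelial, 28 cell cycle, 48 nuclear OXPHOS or 22 adult contractile genes reached a 2-fold difference in either direction. Against shares of 2.87% and 0.398% over all genes, a count of 0 in lists of this size says little about these groups. All 48 OXPHOS ratios and 20 of the 22 contractile ratios were negative.

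**Figure D1:**
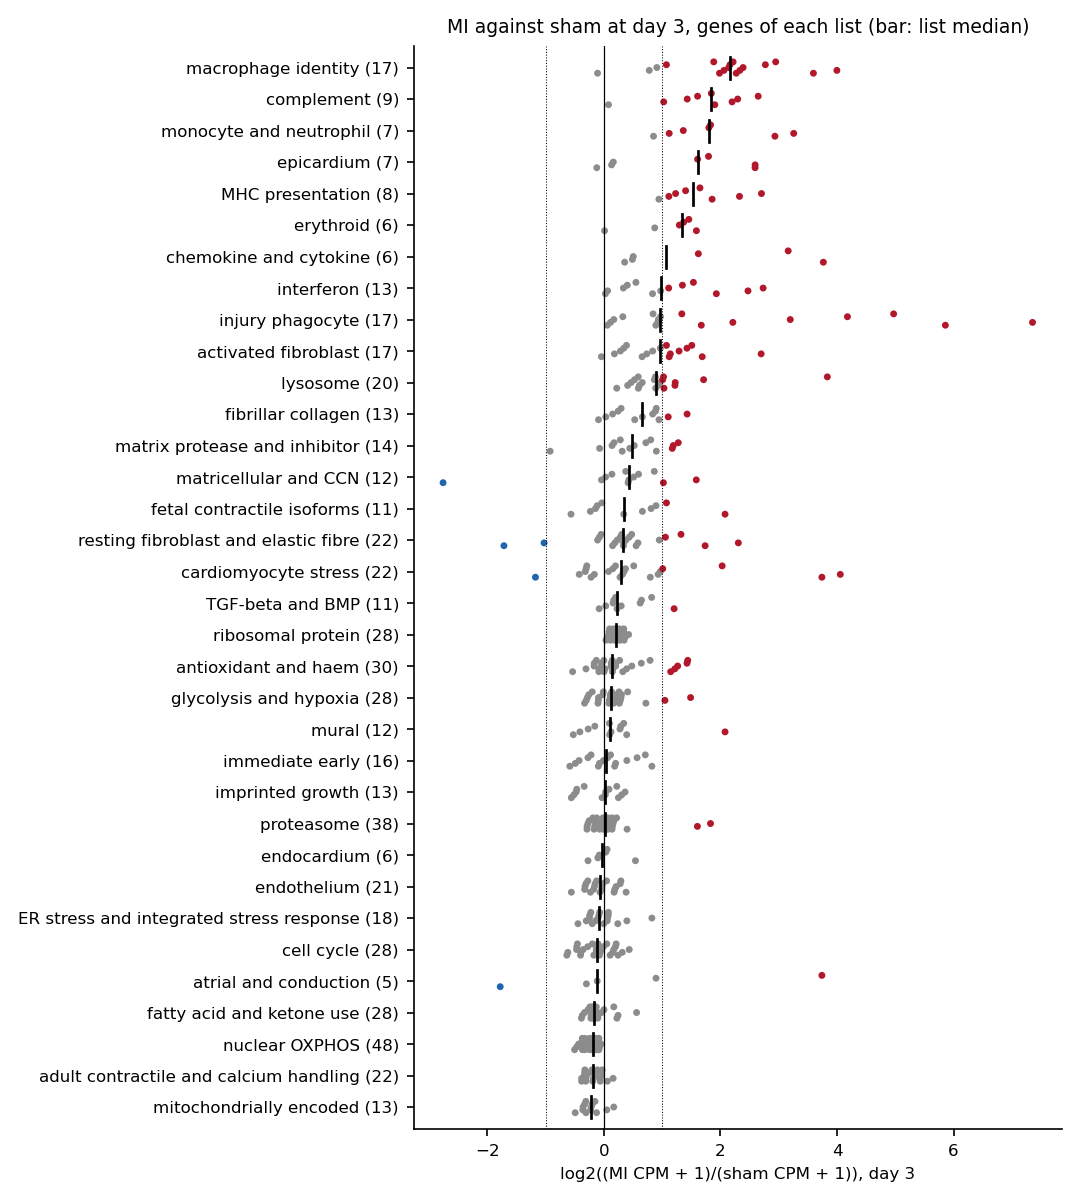
Log2 ratio of MI over sham at day 3 for every member of each gene list that reached 10 CPM in 1 or both sections (1 point per gene, bar at the list median, red for genes at least 2-fold higher, blue for genes at least 2-fold lower). Macrophage, complement, monocyte and neutrophil, epicardial and MHC lists have medians between 1.53 and 2.16, and the endothelial, cell cycle, OXPHOS and contractile lists lie near 0.

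The MI section held a compact inflamed patch that the sham section lacked. The authors had scored each spot for 11 cell classes by label transfer from single nuclei, and a spot is called here by its highest score. Macrophage was the highest score in 20 of 365 MI spots (5.48%, exact 95% interval 3.38% to 8.34%) and in 26 of 543 sham spots (4.79%, 3.15% to 6.94%), so the share of such spots was alike. Their arrangement was not. In MI, 14 of the 20 spots touched each other in 1 patch, and 55.2% of the neighbours of a Macrophage spot were Macrophage spots too. In sham the 26 spots fell into 16 patches of at most 6 spots, and 12.8% of neighbours were of the same class. The spots were also much richer in macrophage RNA in MI, where 5 macrophage markers summed to 1413 CPM against 140.1 CPM in the other MI spots, while in sham they summed to 167 against 38.6 CPM. Cardiomyocyte markers, by contrast, summed to 12151 CPM in the Macrophage spots of MI and to 21754 CPM in its other spots. These intervals cover counting error only.

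To describe where changed genes lay, MI spots were grouped by their distance in spot spacings from the nearest Macrophage spot, a grouping chosen after the data were seen. The core held 20 spots, the rings 1 to 4 spacings away 30, 29, 28 and 29 spots, and the rest of the section 129 spots at 5 to 9 spacings and 99 spots at 10 or more. CM4, the cardiomyocyte state that the study links to regeneration, had the highest score in 56.7% of the first ring, 31.0% of the second and 6.20% of spots at 5 to 9 spacings. Of the 260 genes higher in MI, 199 (76.5%) reached their highest level in the core, against 36.3% of all 9044 genes. By class, 186 of them (71.5%) were highest in Macrophage spots, against 26.5% of all genes, and 23 in FB, 17 in CM4 and 16 in EPI spots. Classes with fewer than 8 MI spots (CM2, CM3 and Pericyte/SMC) were left out of this ranking. The classes were scored from the same expression values, so these counts describe the section and test nothing.

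**Figure D2:**
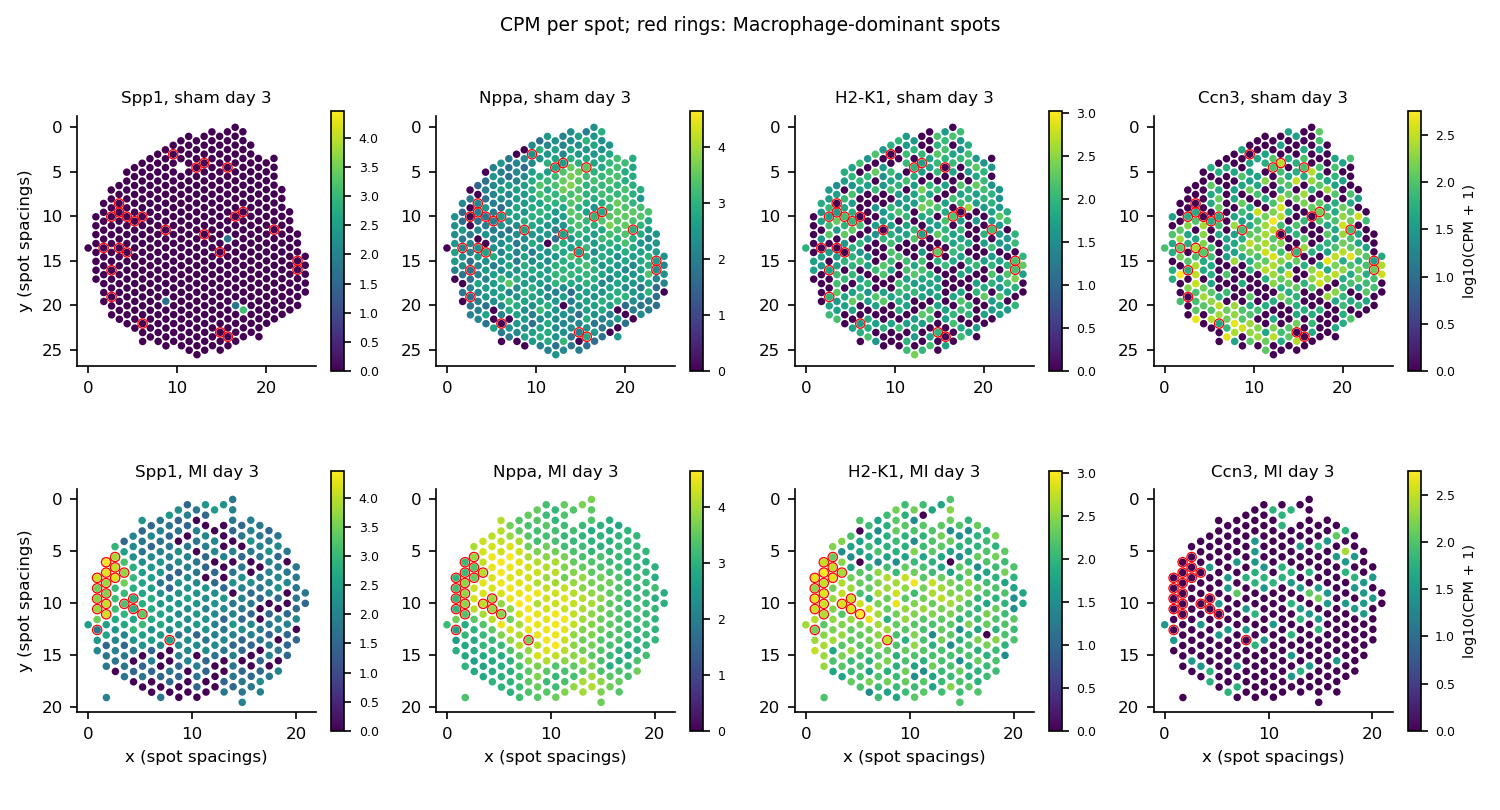
Level per spot, as log10(CPM + 1), of Spp1, Nppa, H2-K1 and Ccn3 in the sham (top) and MI (bottom) section, with axes in spot spacings and red rings around spots whose highest score was Macrophage. Spp1 fills the MI patch, Nppa forms a wide band around it, H2-K1 is raised across the section and Ccn3 is low across it.

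Spp1, which encodes the secreted adhesion protein osteopontin made by phagocytes in wounds, had the highest ratio of any gene. Spp1 (ENSMUSG00000029304.14, protein coding, chromosome 5, 104435118 to 104441050, plus strand, GRCm38) was at 2.38 CPM in sham and at 552 CPM in MI, a log2 ratio of 7.35. In sham it was read in 4 of 543 spots, with 23 UMIs in all and a pooled level of 2.02 CPM (exact Poisson 95% interval 1.28 to 3.03, counting error only). In MI it was present in 83.0% of spots, with a median of 59.6 CPM and a highest spot of 29083 CPM. The core averaged 7581 CPM and each further ring was lower, through 752, 239, 119 and 90.1 CPM to 59.9 CPM at 10 or more spacings. Macrophage spots, 5.48% of the section, held 75.3% of its Spp1. Spots at 10 or more spacings still lay above the sham mean.

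Other genes of lipid-loaded, debris-clearing phagocytes lay along the same gradient. Gpnmb, a membrane glycoprotein of such cells (ENSMUSG00000029816.10, protein coding, chromosome 6, 49036546 to 49070929, plus strand), went from 0.676 to 96.2 CPM, with 1254 CPM in the core and 9.30 CPM at 10 or more spacings. Lgals3, the sugar-binding protein galectin-3, went from 2.57 to 111 CPM (log2 ratio 4.97). The lipid receptor Trem2 was at 3.41 CPM in sham and 39.5 CPM in MI, and Mmp12, the macrophage elastase, at 0.515 and 26.4 CPM. Apoe, the lipid carrier, was already at 188 CPM in sham and reached 874 CPM. Of 17 injury phagocyte genes at the floor of 10 CPM, 8 were at least 2-fold higher and none lower, and all 17 had positive ratios, with a median of 0.97. Over the 365 MI spots, the genes most like Spp1 among 2779 were Ctsb (Spearman's rho 0.60), Clu (0.59) and S100a6 (0.59), values that share section, depth and spot scaling.

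Macrophage identity genes made up the list with the highest median, 2.16, and 14 of its 17 genes at the floor were at least 2-fold higher. Lyz2, the phagocyte lysozyme, was at 41.2 CPM in sham and 673 CPM in MI, and it was read in 40.7% of sham and 97.3% of MI spots. Csf1r, the receptor that keeps macrophages alive, went from 12.1 to 56.7 CPM (log2 ratio 2.14), and the adaptor Tyrobp from 25.4 to 132 CPM (2.33). The pan-macrophage genes Cd68 and Adgre1 had log2 ratios of 2.22 and 2.06, and the Fc receptor Fcgr1 one of 2.95. F13a1, the A chain of coagulation factor XIII, was at 5.13 and 11.9 CPM. More cells of a type in a spot and more RNA per cell cannot be told apart in such averages. In spots 5 or more spacings from any Macrophage spot the list median was 0.82, lower than over the section but above 0.

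Genes of recruited monocytes and neutrophils were higher as well. Ccr2, the receptor that draws monocytes out of the marrow, went from 0.693 to 15.2 CPM and was highest in the core at 131 CPM. The neutrophil calprotectin genes S100a8 and S100a9 went from 10.0 to 37.4 and from 15.4 to 41.1 CPM. Unlike Ccr2, they had their highest ring mean 3 spacings from the core, at 177 and 207 CPM, but this rested on a single spot with 3869 and 4679 CPM. Without that spot the ring was at 40.3 and 41.2 CPM, below the core for S100a8 (43.4 CPM) and below the next ring for S100a9 (41.5 CPM), and the log2 ratio of the whole section was 1.34 for S100a8 and 0.84 for S100a9, under 2-fold. Of 7 monocyte and neutrophil genes at the floor, 6 were at least 2-fold higher, with a median of 1.80. Of 13 lymphocyte genes 8 were in both tables, and none of the 8 reached 10 CPM in either section. Among 6 chemokine and cytokine genes at the floor, the macrophage chemokines Ccl6 and Ccl9 were at 47.6 and 32.3 CPM in MI against 2.58 and 2.72 CPM in sham, and Cxcl16 had a log2 ratio of 1.62.

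Most complement genes and some lysosomal genes were at least 2-fold higher too. The C1q chains C1qa, C1qb and C1qc, which tag dying cells for uptake and are made by macrophages, had log2 ratios of 1.90, 2.30 and 1.84, and C1qb was at 15.6 CPM in sham and 80.7 CPM in MI. The receptors for complement fragments C3ar1 and C5ar1 had ratios of 2.65 and 2.20, and 8 of 9 complement genes at the floor were at least 2-fold higher. C3 itself was distributed differently. In sham, C3 averaged 16.9 CPM and was concentrated in the 2 epicardial (EPI) spots at 3485 CPM, with 2.20 CPM in CM1 spots. In MI it averaged 53.4 CPM, with 822 CPM in 8 EPI spots and 29.9 CPM in CM1 spots, and it was read in 47.4% of MI against 5.89% of sham spots. All 20 lysosomal genes at the floor had positive ratios and 7 were at least 2-fold higher, led by the protease Ctss, which went from 9.99 to 156 CPM. More general hydrolases differed less, for example Ctsd at 0.97 and Ctsl at 0.89 on the log2 scale.

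Of 22 cardiomyocyte stress genes 4 were at least 2-fold higher (Clu, Nppa, Xirp2 and Nppb), and of these Nppa and Nppb formed a band around the patch. Nppa, which encodes atrial natriuretic peptide and is switched on in stressed ventricular muscle (ENSMUSG00000041616.9, protein coding, chromosome 4, 148000722 to 148002079, plus strand), went from 611 CPM in sham to 8172 CPM in MI, a log2 ratio of 3.74. Its median over spots went from 329.7 to 3043 CPM, the highest sham spot had 5718 CPM, and the highest MI spot had 44342 CPM. Nppa was not highest in the core. It was at 5120.3 CPM there and at 15231 and 20087 CPM in the first and second rings, the second being the highest, and then went through 17866 and 13444 CPM to 1659 CPM at 10 or more spacings. CM4 spots averaged 22554 CPM in MI and 313 CPM in sham, and FB, EC and EndoEC spots of MI were at 16279, 14914 and 14702 CPM. Of all Nppa in the section, 30.2% lay in CM4 and 3.43% in Macrophage spots.

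Nppb, the gene of the related B-type peptide, had a similar band but a smaller difference. It was at 119.7 CPM in sham and 242 CPM in MI (log2 ratio 1.01, and 0.97, under 2-fold, without the highest spot of its second ring), with 99.6 CPM in the core, 605 CPM in the second ring and 123 CPM at 10 or more spacings, which is close to the sham mean. Clu, which encodes the secreted chaperone clusterin, combined both patterns. It went from 68.9 to 1162 CPM (log2 ratio 4.06), was highest in the core at 5147 CPM, and was still at 4152 CPM in the first ring, with 24.3% of its total in Macrophage and 35.3% in CM4 spots. Over the MI spots, Nppa was most like Myl9 (rho 0.77), Clu (0.75) and Gpx3 (0.71) and most unlike the calcium pump gene Atp2a2 (-0.75).

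Some genes of muscle cell repair and of the fetal cytoskeleton were highest in the rings next to the core. Xirp2, an actin-binding protein of remodelling intercalated discs, went from 12.4 to 53.7 CPM and was at 89.1 CPM in the core, 217 CPM in the first ring and 9.58 CPM at 10 or more spacings. Acta1, the skeletal actin of the fetal heart, just missed the 2-fold limit over the whole section (104 to 204 CPM, log2 ratio 0.97), but was at 618 CPM in the first ring (455 CPM without its highest spot), 485 CPM in the second and 96.7 CPM at 10 or more spacings. The smooth muscle gene Cnn1 was at 12.3 CPM in sham and 55.0 CPM in MI, with 186 CPM in the first ring. The simple-epithelium keratins Krt8 and Krt18 had ratios of 2.59 and 2.59, and Krt18 went from 4.71 to 33.5 CPM. It was highest in CM4 spots, at 94.7 CPM against 3.88 CPM in CM4 spots of sham, although in sham it was highest in the 2 EPI spots (109 CPM). Of the 22 cardiomyocyte stress genes, 1 was at least 2-fold lower (Mybpc2, -1.17), with a median of 0.30. Most of the list differed little, and the fetal contractile isoforms had a median of 0.34 with 2 of 11 at least 2-fold higher. Myh7, the fetal myosin heavy chain, went from 1858 to 2939.8 CPM (0.66) and was lowest in the core (1456 CPM) and highest at 10 or more spacings (3452 CPM), the opposite of the band seen for Acta1.

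**Figure D3:**
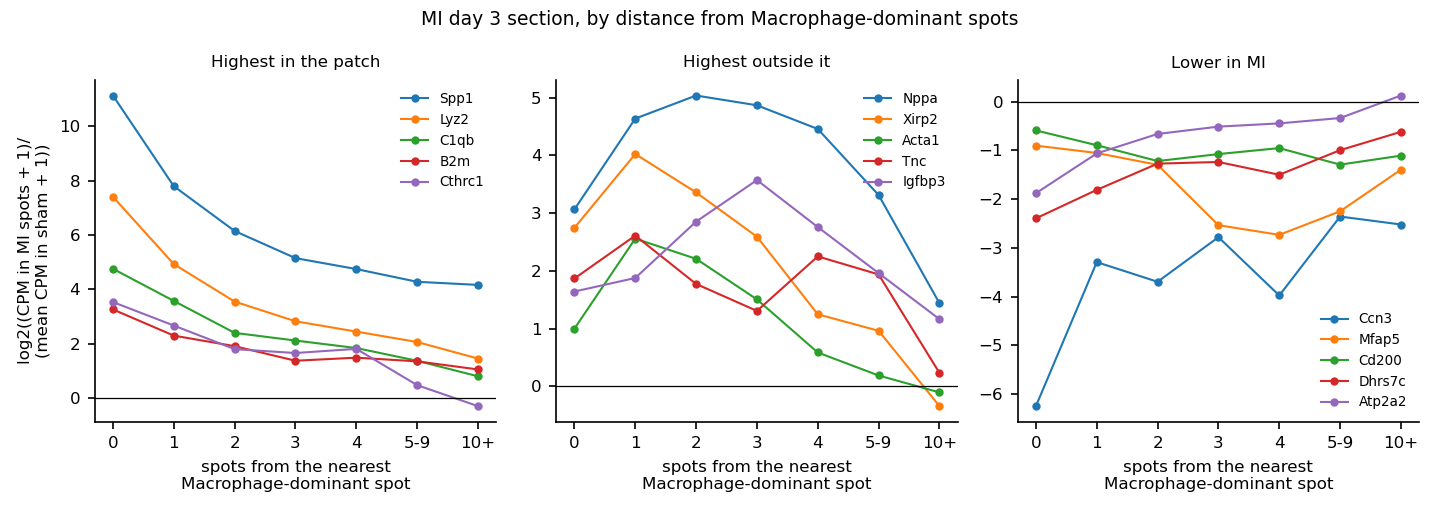
Log2 ratio of the mean CPM + 1 of MI spots at each distance from the nearest Macrophage spot over the mean CPM + 1 of the whole sham section, against distance in spot spacings, for genes of the core (left), the surrounding band (middle) and genes lower in MI (right). The left-hand genes are highest in the core, Nppa and Xirp2 peak 1 or 2 spacings from the core, and Ccn3 is low at every distance (its value at 0 is set by the added 1 CPM, since it was listed at 0 there).

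Of 28 glycolysis and hypoxia genes, 2 were at least 2-fold higher, against 2.87% of all genes: Bnip3, a mitophagy receptor (56.8 to 119 CPM), and Slc16a3, the lactate exporter (8.11 to 24.5 CPM). CM4 spots averaged 197 CPM of Bnip3 and 56.9 CPM of Slc16a3 in MI, the most of any class with at least 8 spots (the 1 CM2 spot had 228 CPM of Bnip3), and both were above their far level in the first 2 rings. The list median was 0.12. Igfbp3, a binding protein of insulin-like growth factors, had yet another place. It had a log2 ratio of 2.17 and was highest 3 spacings from the core (249 CPM) and in endothelial (EC) spots, at 329.8 CPM against 14.7 CPM in EC spots of sham.

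Part of the matrix genes were higher in MI, and fewer spots were scored as fibroblasts. FB was the highest score in 122 sham spots (22.5%, exact 95% interval 19.02% to 26.2%) and in 22 MI spots (6.03%, 3.82% to 8.98%), yet 5 fibroblast markers summed to 1380 CPM in sham and 1986 CPM in MI, and 4 of the 5 were higher in MI. The scores of a spot sum to 1, so a spot's highest class depends on all others. Activated fibroblast genes had a median of 0.97, with 8 of 17 at least 2-fold higher against 2.87% of all genes. Tnc, the tenascin-C of provisional matrix, went from 22.7 to 75.3 CPM, Timp1, a protease inhibitor, had a log2 ratio of 1.51, and Ltbp2, a microfibril-associated protein, went from 1.06 to 12.4 CPM. Cthrc1, a gene of matrix-producing fibroblasts in scars, had a log2 ratio of 1.43 and was at 161 CPM in the core and 10.4 CPM at 10 or more spacings. Postn, another scar gene, was high in both sections at 768 and 871 CPM.

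Type I collagen genes were highest in the patch. Col1a1 and Col1a2, the chains of type I collagen, were at 687 and 554 CPM in sham and 1228 and 1035 CPM in MI, just under 2-fold. In the core, Col1a1 was at 4214 CPM, and at 10 or more spacings it was at 725 CPM, close to the sham mean. Col3a1, the chain of type III collagen, was at 1685 CPM in sham and had a log2 ratio of 0.30. Only Col11a1 (1.43) and Col16a1 (1.10) of 13 collagen genes were at least 2-fold higher, and the median of the 13 was 0.66 over the section and 0.13 in far spots. Among proteins of elastic fibres and small proteoglycans, Mfap4 (42.4 to 214 CPM), Eln (174 to 437 CPM) and Bgn (138 to 461 CPM) were higher, while Mfap5 and Prelp of the same list were lower. Eln, the elastin gene, was high outside the patch too, with 669 CPM at 4 spacings against 385 CPM in the core. The growth factor Tgfb3 was the only one of 11 TGF-beta and BMP genes past 2-fold, at 1.20.

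Most antigen presentation genes and part of the interferon genes were higher far from the patch as well as in it. H2-K1, a class I MHC heavy chain, went from 54.6 to 200.4 CPM (log2 ratio 1.86), and its median over spots from 47.0 to 149 CPM. It was at 603 CPM in the core and still at 124 CPM at 10 or more spacings, over 2-fold the sham mean. B2m, the light chain of class I molecules, went from 185 to 583 CPM and was at 388 CPM at 10 or more spacings. Of 8 MHC presentation genes at the floor, 7 were at least 2-fold higher, among them the peptide transporters Tap1 (1.23) and Tap2 (1.12) and the class II genes H2-Aa (2.70) and Cd74 (2.33), and the class I gene H2-D1 was at 0.94. The list median was 1.53 over the section and 1.16 in far spots, a smaller drop than that of the macrophage list. Cd74 was at 1.53 on the log2 scale in far spots as a whole, but at 10 or more spacings it was at 2.40 CPM, under its sham mean of 2.78 CPM.

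Of 13 interferon genes at the floor all had positive ratios and 6 were at least 2-fold higher. Ifi27l2a went from 14.6 to 102 CPM, Bst2, the virus tether tetherin, from 13.5 to 54.1 CPM, and the immunity GTPases Iigp1 and Igtp had ratios of 2.47 and 1.54. Isg15, the ubiquitin-like modifier, was high near the patch, with 43.2 CPM in the first ring (20.6 CPM without its highest spot) and 3.28 CPM at 10 or more spacings against 4.59 CPM in sham. Its log2 ratio of 1.11 fell to 0.87, under 2-fold, without the highest MI spot. The 2 interferon-inducible proteasome subunits Psmb8 and Psmb9 had ratios of 1.61 and 1.83 and were the only members of 38 proteasome genes past 2-fold, whereas their sister subunit Psmb10 was at 0.07.

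Promoters of these genes were read for the letters to which interferon-activated factors bind, since these genes were higher together. The core GAAANNGAA was searched on both strands in the 250 bases before the RefSeq start of each gene (GRCm38.p6). It was held by 5 of the 9 interferon genes at the floor that have a promoter in the table (Isg15, Stat2, Bst2, Ifitm2 and Igtp, 55.6%), by 1 of the 6 MHC presentation genes (B2m, 16.7%), by 29 of 186 genes at least 2-fold higher in MI (15.6%), by 3 of 23 lower genes, by 7.02% of 7247 promoters of genes at the floor and by 7.13% of all 32851 promoters. The AP-1 letters TGANTCA, another motif of injured tissue, were in 17 of the 186 (9.14%) against 5.11% of genes at the floor. The letters TGACNNNGC, the core of the antioxidant element read by Nrf1 and Nrf2, were in 24 of the 186 (12.9%) against 14.1%, and in 8 of 24 antioxidant and haem genes at the floor (33.3%). The following windows show the interferon core, in capitals, in genes with high ratios. A match describes letters and not a bound site.
B2m, chr2:122147528-122147576, plus strand: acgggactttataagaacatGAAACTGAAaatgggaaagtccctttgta
Bst2, chr8:71537574-71537622, minus strand: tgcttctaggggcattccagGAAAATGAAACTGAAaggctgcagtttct
Isg15, chr4:156200868-156200916, minus strand: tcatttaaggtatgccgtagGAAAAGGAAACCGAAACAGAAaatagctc
Igtp, chr11:58199502-58199550, plus strand: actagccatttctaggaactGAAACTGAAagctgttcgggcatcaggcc
Ctss, chr3:95526745-95526785, plus strand: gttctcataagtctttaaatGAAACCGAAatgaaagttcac

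Bst2 and Isg15 held 2 and 3 overlapping copies and the others 1. The copy of Igtp began 34 bases and that of B2m 139 bases before the start. B2m, Igtp and Bst2, whose promoters hold the core, had ratios in far spots of 1.24, 1.51 and 1.49, while Isg15, with 3 copies, was at 0.16 there. Stat2 and Ifitm2 hold the core as well, and neither passed 2-fold over the whole section (0.065 and 0.34) or in far spots (-0.16 and 0.21). Spp1 also holds 1 copy of the interferon core, on the other strand and 156 bases before its start, and is shown here for another motif, GAGGAAGT, which the myeloid factor PU.1 binds and which 8 of the 186 higher genes held (4.30%) against 2.62% of genes at the floor.
Spp1, chr5:104434978-104435025, plus strand: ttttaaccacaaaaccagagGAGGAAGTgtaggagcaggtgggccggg

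Most genes of energy supply and contraction had slightly negative ratios, none past 2-fold. All 48 nuclear OXPHOS genes had negative ratios, with a median of -0.18 and the lowest at -0.50 (Cox8b, 1620.4 to 1144 CPM). In far spots the median was -0.07. Atp2a2, the calcium pump of the sarcoplasmic reticulum, went from 4375 to 3481 CPM and was at 1191 CPM in the core, 2097 CPM in the first ring and 4782 CPM at 10 or more spacings. The mitochondrial transcript mt-Co1 was at 10486 CPM in the core and 42119 CPM at 10 or more spacings, against 40664 CPM in sham. Of 22 adult contractile and calcium handling genes 20 had negative ratios (median -0.18), and of 28 fatty acid and ketone genes 23 (median -0.17). All 28 ribosomal protein genes had positive ratios, with a median of 0.21. CPM are shares of a spot's total, so small shifts of this kind in opposite directions cannot be told apart from the weight of the most abundant transcripts.

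Nfe2l1, which encodes Nrf1, the transcription factor at the centre of the study, was at 98.8 CPM in sham and 108 CPM in MI (log2 ratio 0.13). It lay between 95.3 and 121 CPM in every ring from the core to 10 or more spacings. Its relative Nfe2l2 was at 50.7 and 56.5 CPM, with 83.6 CPM in the core. Of 30 antioxidant and haem genes, 5 were at least 2-fold higher and the median was 0.15. They were Hmox1, the haem-degrading enzyme (11.3 to 27.5 CPM, highest in the core at 157 CPM), the extracellular peroxidase Gpx3 (124 to 338 CPM), the metal-binding Mt2 (1.43), Mgst1 (1.27) and Sod3 (1.15). The 38 proteasome genes had a median of 0.02. The cell cycle list had a median of -0.11 with 19 of 28 ratios negative, and Mki67, a marker of cycling cells, was at 66.2 CPM in sham and 73.6 CPM in MI, with 122 CPM in the core.

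Several blood and epicardial genes were higher away from the patch as well. Haemoglobin genes Hba-a1, Hba-a2 and Hbb-bs were at 1407, 94.4 and 2555 CPM in sham and 3455, 286 and 7019.7 CPM in MI, and Alas2, the first enzyme of haem synthesis in red cell precursors, had a log2 ratio of 1.37. All 4 were highest in endocardial (EndoEC) spots and 5 to 9 spacings from the patch, although without the highest spot there Hba-a2 and Hbb-bs were slightly higher at 4 spacings, and 3 erythroid markers summed to 3973 CPM in sham and 10503 CPM in MI. Of 7 epicardial genes at the floor, 4 were at least 2-fold higher: Msln, and C3, Krt8 and Krt18, described above under other groups. The 4 epicardial markers, which share only Msln with these, summed to 61.2 CPM in sham and 81.6 CPM in MI. Msln, the mesothelial surface protein, went from 3.69 to 15.3 CPM and was read in 1.10% of sham and 23.3% of MI spots. In EPI spots themselves it was lower in MI, at 217 against 769 CPM, with 8 and 2 such spots.

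Genes lower in MI were few. Ccn3, a matricellular protein of the CCN family (ENSMUSG00000037362.8, protein coding, chromosome 15, 54745702 to 54754039, plus strand), went from 75.0 to 10.2 CPM (log2 ratio -2.76) and was read in 62.1% of sham and 22.2% of MI spots. It was highest in FB and EndoEC spots of sham (139 and 125 CPM), but in CM1 spots as well it went from 42.4 to 7.09 CPM. At 5 to 9 spacings it was at 13.8 CPM and at 10 or more at 12.3 CPM. Mfap5, a microfibril protein of fibroblasts, went from 115 to 34.5 CPM, with 187 CPM in FB spots of sham and 74.4 CPM in those of MI. Cd200, a surface protein that restrains macrophages, went from 51.4 to 23.4 CPM (-1.11). Hmgcs1, an enzyme of cholesterol synthesis, went from 129 to 62.0 CPM, the calcium channel gene Cacna1g from 64.1 to 30.1 CPM, and Slc38a4, an amino acid transporter, from 131 to 64.9 CPM. Slc38a4 sat at the 2-fold limit and missed it under 6 of 14 alternatives, and Cacna1g, Hmgcs1 and Dhrs7c missed it under 2 each. Dhrs7c, a muscle reticulum dehydrogenase, went from 176 to 84.3 CPM and was lowest in the core, at 32.6 CPM against 114 CPM at 10 or more spacings. Cacna1g also was lower in the core (14.3 CPM) than at 10 or more spacings (33.5 CPM), and so were Fam174b (9.68 and 63.5 CPM), Mrpl42 (145 and 265 CPM) and Scd4 (11.5 and 42.9 CPM). Stk25, a protein kinase gene, was at 63.6 CPM in sham day 3 and 47.6 CPM in MI day 7 replicate 1. Both of these sections carried Xist and no Y-linked values. In the remaining sections, which carried Y-linked genes, Stk25 lay between 20.9 and 27.4 CPM, and a part of sex in this was not tested. The other genes past 2-fold with at least 50 CPM in sham were Cdc37l1 (-1.16) and BC004004 (-1.16). Pcsk6, Fam174b, Mrpl42, Scd4 and Tspan13, next in order, had ratios between -0.94 and -0.81.

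The comparison was repeated away from the patch, with MI spots at least 5 spacings from a Macrophage spot against the whole sham section. There 81 genes were at least 2-fold higher (0.92%) and 35 lower (0.398%) of 8801. Of the 260 genes higher over the whole section, 110 (42.3%) passed 2-fold in these far spots, against 1.23% of all 9044 genes, and all 260 stayed positive. Their median ratio dropped by 0.70 on the log2 scale. The far spots are part of the same MI section and were set against the same sham section that chose these genes, so passing again follows in part from the choice. The 36 lower genes hardly shifted, since 29 (80.6%, background 0.387%) passed 2-fold in far spots and 31 (86.1%) kept a ratio within 0.25 of that of the whole section, near the 8018 (88.7%) of all 9044 genes that did. Of the higher genes 39 (15%) did. The 39, and so the 260, included the Y-linked Eif2s3y, Ddx3y, Kdm5d and Uty, which mark the difference in sex. All were at 0 CPM in sham, and the 0 UMIs of Eif2s3y allow up to 0.263 CPM over the section. Also among the 39 were Hbb-bs, Hba-a2, Msln, C3, Mt2, Igtp, Eln and the long transcript AI506816. AI506816 was at 1.09 CPM in sham and between 45.7 and 89.1 CPM in every ring of MI, and its part in the response to MI was not tested.

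**Figure D4:**
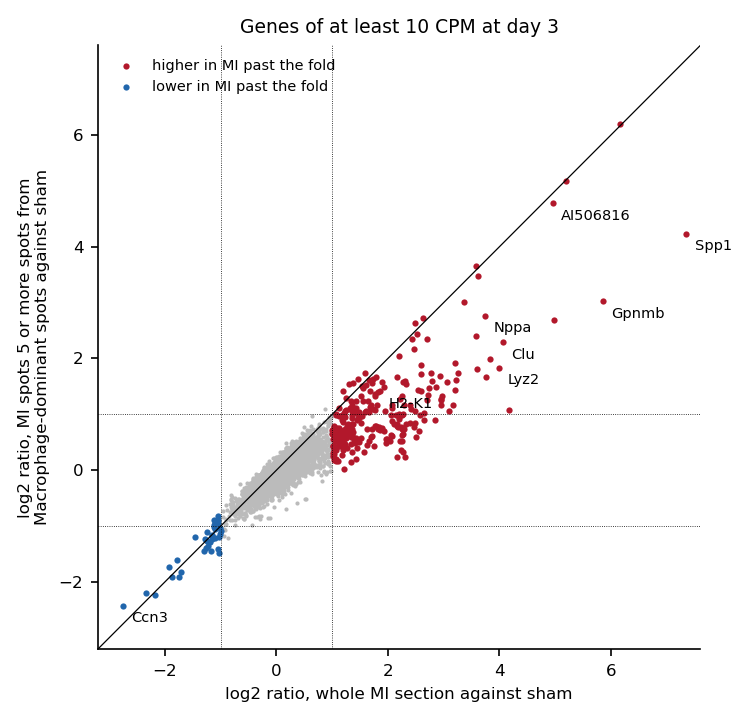
Log2 ratio of far MI spots (at least 5 spacings from a Macrophage spot) over sham against that of the whole MI section over sham, 1 point per gene for the 9044 genes at the floor, with the diagonal of equal ratios. Genes lower in MI lie near the diagonal, whereas most genes higher in MI lie below it, for example Spp1 at 4.23 against 7.35.

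The sections were also compared within the main ventricular muscle. CM1 was the highest score in 244 sham spots (44.9%) and 200 MI spots (54.8%). Between these, 121 of 8717 genes were at least 2-fold higher in MI (1.39%) and 42 lower (0.482%). Of the 260 genes, 157 (60.4%, background 1.91%) passed 2-fold between CM1 spots too, and 24 of the 36 lower genes (66.7%, background 0.42%). These spots are part of the values that chose the genes, so a share above the background follows in part from the choice. Of the 121 and 42 genes called between CM1 spots, 106 and 24 were also called over the whole sections. Nppa was at 573 CPM in CM1 spots of sham and 3344 CPM in those of MI, and Spp1 at 0.599 and 66.7 CPM. Spots hold several cells, so RNA of phagocytes in or beside muscle spots and RNA of the muscle itself cannot be told apart.

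The genes past 2-fold at day 3 were followed to day 7. They were chosen for passing at day 3, so a smaller number at day 7 follows in part from the choice. There, 1 sham and 2 MI sections were measured. The first MI replicate carried Xist and no Y-linked values, whereas the sham section and the second replicate carried Y-linked genes. The first replicate thus differed from its control in sex as well as in surgery. Of 253 higher genes listed in the sham and first MI section, 12 passed 2-fold in the first MI replicate (4.74%, background 0.332%). In the second replicate 73 of 257 did (28.4%, background 1.01%), and 10 did so in both (background 0.166%). Of the 36 lower genes, 4 passed 2-fold in the first replicate (11.1%, background 0.487%) and 0 in the second (background 0.0774%) or in both (background 0.0332%). Spp1 was at 0.234 CPM in sham day 7 and at 1.53 and 22.4 CPM in the 2 MI sections, against 552 CPM in MI at day 3. Nppa was at 312 CPM in sham and 159 and 1264 CPM in MI at day 7, so the 2 replicates fell on opposite sides of their control. Lyz2 was at 50.3, 81.7 and 146 CPM and H2-K1 had day 7 ratios of 0.31 and 0.26. C3 had higher ratios at day 7, 2.17 and 5.63, against 1.61 at day 3. However, its sham mean at day 3 rested largely on 1 spot of 6735 CPM, and that spot also enters the difference between days given below. Ccn3 had ratios of -0.70 and -0.91 at day 7, in the direction of day 3.

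**Figure D5:**
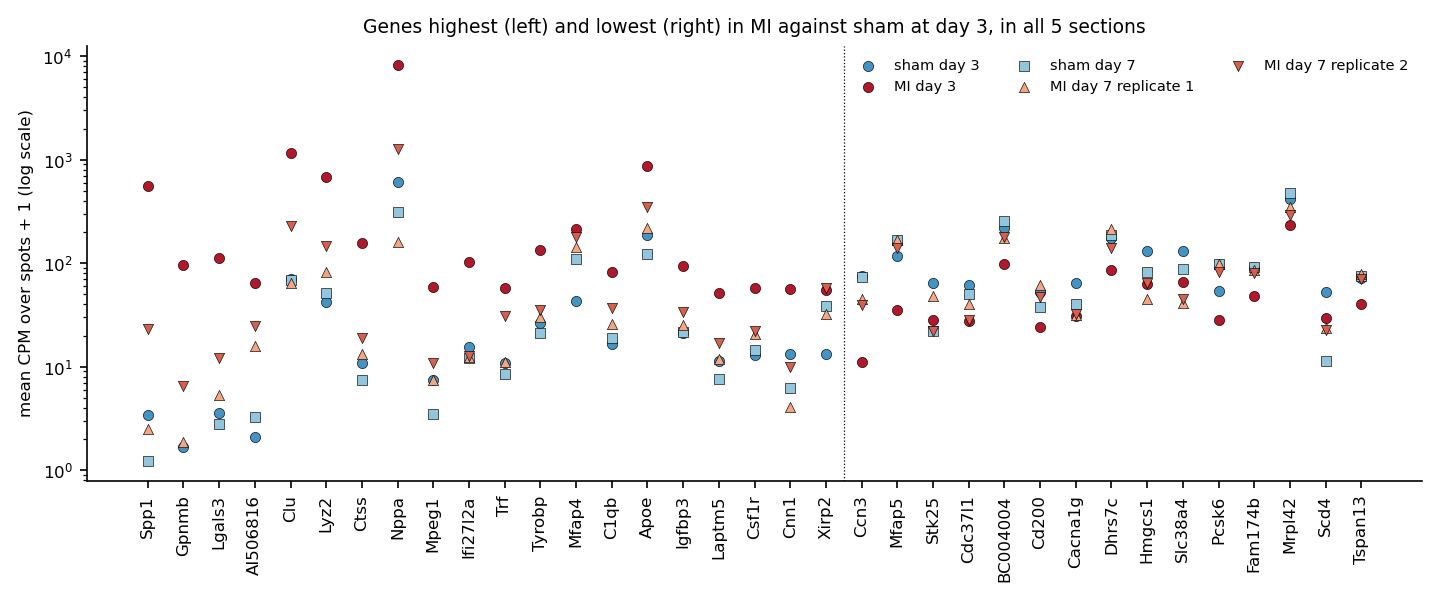
Mean CPM + 1 (log axis) in all 5 sections of the 20 genes with the highest (left) and the 15 with the lowest (right) ratios of MI over sham at day 3 among genes of at least 50 CPM. On the left the day 3 MI section lies above the other 4 sections for every gene but Xirp2, which was higher in MI day 7 replicate 2, and Gpnmb has no point for sham day 7, where it was not listed.

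The difference between the day 3 and day 7 effects was tested with limma on section means, with the spread taken from the 2 MI day 7 sections alone (1 residual degree of freedom), which differed in sex. Of 9171 genes, 61 had a larger effect at day 3 (0.665%) and 17 a smaller one (0.185%) at a limma adjusted p under 0.05. The log2 ratio of Spp1 was 4.72 higher at day 3 than at day 7 (SE 0.43, limma adjusted p 2.2e-23), and 3.11 and 6.32 higher without MI day 7 replicate 1 and 2. That of Nppa differed by 3.22 (SE 0.45, limma adjusted p 1.15e-09), and by 1.73 and 4.71 without replicate 1 and 2. That of C3 differed by -2.30 (SE 0.34, limma adjusted p 1.48e-08), and by -4.03 and -0.57 without them. These calls depended on the scaling: with median-of-ratios scaling, or with mitochondrial and haemoglobin genes left out of the total, limma called 0 genes, and the adjusted p of Spp1 was 0.844 and 0.752. The differences themselves hardly moved, to 4.57 and 4.51 for Spp1 and to 3.11 and 3.15 for Nppa. Without a level filter the limma adjusted p was 0.0863 for Spp1, 0.361 for Nppa and 0.971 for C3. At an unadjusted p under 0.05 the 2 scalings gave 268 and 313 larger and 197 and 212 smaller effects. In the main scaling limma took each gene's spread from a trend over genes of like level and gave no weight to its own. In the other 2 scalings a gene's own spread also counted.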

How the data were processed

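Visium spatial transcriptomes of 2 day 3 sections (1 sham, 1 MI) were analysed, and 3 day 7 sections were set beside them. The authors aligned reads to mouse genome GRCm38 (mm10) with Space Ranger and normalised spots with sctransform in Seurat, as the labels and methods state. For sham day 3 the authors deposited raw UMI counts per gene and spot. For the remaining 4 sections they deposited corrected counts from sctransform, treated here as a score, which bring spots to a like depth and cover genes in at least 5 spots. The authors also deposited 11 cell class fractions per spot, made by label transfer from single nuclei. The design had assumed 1 unit in all tables, so no count test was used, and sham counts corrected with Seurat 5.3.0 and sctransform 0.4.2 served as an alternative. These totals differed from the authors' own corrected totals by at most 0.0842%.

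Spots under 1000 counts (raw or corrected) were removed, the rest scaled to CPM over the 14447 genes in both tables, and averaged per section. Of the MI table, 19 date-like gene names were dropped, and 16 genes of at least 10 CPM in sham were not in the MI table, most of them with such names. Ratios were log2 of CPM + 1, and a gene counted as higher or lower at an absolute log2 ratio of at least 1 (2-fold) and a level of 10 CPM or more in 1 or both sections. Raw depth is known for sham day 3 only, where a median of 20842.5 UMIs per spot limits genes of few CPM. The text names the 20 highest and 15 lowest ratios among genes of at least 50 CPM (without sex-linked, mitochondrial and haemoglobin genes), members of 37 gene lists past 2-fold or with the 3 largest absolute ratios, and Nfe2l1. Other genes were named after their values were seen. Members and lists were chosen with earlier results of these data known. The difference between day 3 and day 7 effects was fitted with limma 3.58.1 (trend, 4 group means, Benjamini-Hochberg adjustment) in R 4.3.3, checked on simulated data. The study describes the 2 MI day 7 sections as independent biological replicates, and the spread comes from them alone. In the main fit it is a trend over genes of like level, so p-values give no weight to a gene's own spread. Alternatives covered scaling, filters, pseudocounts of 0.1 and 5, spot minimums and spot sets. Promoters came from RefSeq (GRCm38.p6), with 186 of 260 higher genes matched, and gene positions from GENCODE on GRCm38. Python 3.11.15 with numpy 2.4.6, pandas 2.3.3, scipy 1.17.1 and matplotlib 3.10.9 was used.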

Additional observations from a re-analysis of the deposited data

Results flagged for a closer look

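Genes named only from lists are not counted here, though limma called some of them, such as C3 and Krt18. Among the 20 genes with the highest and the 15 with the lowest ratios (at least 50 CPM), limma called 23. For these the MI effect differed between day 3 and day 7 at a limma adjusted p under 0.05. These genes were chosen for extreme ratios at day 3, the same ratios that enter the difference, so large differences follow in part from the choice. All 23 calls were lost with median-of-ratios scaling and with mitochondrial and haemoglobin genes left out of the total, while the differences stayed about as large, for example 3.46, 3.32 and 3.29 for Lgals3. The spread came from the 2 MI day 7 sections alone. The values are differences of log2 ratios, day 3 minus day 7. Among phagocyte genes Spp1 differed by 4.72, Lgals3 by 3.46, Lyz2 by 2.90, Ctss by 2.76, Tyrobp by 1.70, Mpeg1 by 1.60, C1qb by 1.58, Csf1r by 1.57 and Laptm5 by 1.28. The chaperone gene Clu differed by 3.24, and among muscle genes Nppa differed by 3.22, Cnn1 by 2.06 and Xirp2 by 1.88. Ifi27l2a differed by 2.69, AI506816 by 2.35, Mfap4 by 1.77, Igfbp3 by 1.72 and the iron carrier Trf by 1.254. Without MI day 7 replicate 1 and 2 the difference of Trf was 0.52 and 1.98, that of Spp1 3.11 and 6.32 and that of Nppa 1.73 and 4.71. Among genes lower in MI at day 3, Ccn3 differed by -1.95, Scd4 by -1.85, Stk25 by -1.77, Cd200 by -1.60 and Mfap5 by -1.57. For Stk25 and Cd200 the MI sections of day 7 lay above their sham section, with ratios of 1.15 and 0.02 for Stk25 and 0.69 and 0.30 for Cd200, and Scd4 had day 7 ratios of 1.07 and 0.99 against -0.82 at day 3.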

How the results depend on the processing

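No paired analysis was possible because each day 3 group had 1 section and the day 7 sham group 1, so no replicate numbers were shared by 2 pairs of groups. Leaving out a replicate at day 3 was likewise impossible, and without either MI day 7 section the comparison of days has no residual degrees of freedom. The counts of 260 higher and 36 lower genes stayed within 1.5 times under median-of-ratios scaling, without mitochondrial and haemoglobin genes, with summed spots, other spot minimums, interior spots, a pseudocount of 0.1 and the corrected sham counts. With a minimum of 50 CPM they were 70 and 10, with none 606 and 66, and a pseudocount of 5 left 16 lower genes. Higher genes numbered 171 without Macrophage spots, 121 between CM1 spots and 81 in far spots, the last 3 of which describe other sets of spots. Among called genes, 74.2% were higher between CM1 spots and 69.8% in far spots, against 87.8% in the whole sections. The matricellular and CCN list had a median of -0.087 in far spots and the mitochondrially encoded list one of 0.022 between CM1 spots, each against the sign of the whole section. The limma comparison of days called 0 larger and 0 smaller effects under both other scalings, and 7 smaller ones without a level filter. Without that filter, 12 of the 23 genes called among the highest and lowest ratios lost their call. F13a1, S100a9, Lipa, Grn, Ccn2, Nppb and Isg15 passed 2-fold at day 3 but not without their highest spot in the MI section. Slc38a4, close to 0 in that comparison, was at -0.089 with median-of-ratios scaling and -0.076 without mitochondrial and haemoglobin genes. The cause of these changes was not tested, except that fewer or more genes enter under another filter. Rings, far spots and leaving out the highest spot of a ring or of the section were chosen after seeing the data.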
